A study of Mus musculus with 12 samples.

Results

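The genes described here encode the cytosolic heat shock proteins, their co-chaperones and the cytosolic chaperonin of mouse cells that carry the label MLO-Y4, together with 2 heat shock factors. They were chosen by name as a list of 35 genes, by a rule that uses no measured value but was drawn up with earlier results of these data known, and all 35 were found among the 51707 genes summed from the deposited transcript tables. The list holds 6 genes of the HSP70 and HSP110 families, 6 of HSP90 and its co-chaperones, 6 small heat shock and BAG proteins, 6 J-domain proteins, 6 subunits of the chaperonin TRiC and 2 heat shock factors. It also holds 3 genes, Hspa9, Hspd1 and Hspe1, whose proteins work in mitochondria and not in the cytosol, so they are described apart. A filter on low counts left 33 of the 35 for testing.

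Chaperones bind unfolded or part-folded proteins and use cycles of ATP binding and release to let them fold. HSP70 receives its clients from J-domain proteins and passes some of them, through the adaptor that Stip1 encodes, to HSP90, while small heat shock proteins hold unfolded proteins without using ATP and TRiC encloses actin, tubulin and other clients in a chamber. The heat shock factor of the Hsf1 gene drives many of these genes when unfolded proteins build up, by binding repeats of a short element in their promoters.

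MLO-Y4 is an osteocyte-like line from mouse bone, labelled WT, and a coat of type I collagen (0.15 mg/mL) lay under all cells. BIGH3, a secreted matrix protein encoded by TGFBI, was given to treated cells as recombinant human protein. The 4 groups were differentiated cells with BIGH3, differentiated control cells, undifferentiated cells with BIGH3 and undifferentiated control cells, with 3 RNA-seq libraries each. Differentiation medium held β-glycerophosphate (4 mM) and ascorbic acid (50 µg/mL) in 10% serum, and since the labels give no such medium for undifferentiated cells, the state of the cells and their medium cannot be told apart. The dose and time of BIGH3 and what controls received are not given in the sources used here. Whether the 3 libraries of a group were separate cultures is not stated, so p-values measure the spread between libraries, which may be technical. In bulk RNA, fewer cells of a type and less RNA per cell cannot be told apart.

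The 12 libraries held 19014492 to 27612155 estimated reads. Data names begin with MC3 where the label reads MLO-Y4, and which line this is was not tested. Of the osteocyte markers, Dmp1 (35.6 to 95.3 CPM, reads scaled to the library's size), Phex, Pdpn and Gja1 were present in every library, while Sost had 10 reads and Mepe 51 in all libraries together and Fgf23 had 0. Libraries said here to carry liver transcripts were picked by Afp above 10 CPM. Afp stood at 63.3 CPM in undifferentiated control 2, 27.0 CPM in differentiated BIGH3 3, 24.9 CPM in differentiated control 2 and 11.2 CPM in undifferentiated BIGH3 1. The 12 genes of the liver list, Afp among them, summed to 115 CPM in undifferentiated control 2. In their highest libraries Trf reached 24.7 CPM, Ttr 15.5, Apob 9.32, Ahsg 6.58 and Fgb 6.37 CPM. Apoa1, Apoh, Fgg and Fga reached 2.66, 2.49, 2.17 and 1.92 CPM. Alb, another gene of the list, was at 0.368 CPM or less throughout, and Apoa2 at 0.207 CPM or less. Epithelial markers were also highest in undifferentiated control 2, at a sum of 19.8 CPM. The origin of the Afp reads in these libraries was not tested. Member counts with and without these libraries are given beside the results they touch.

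Per transcript length, the constitutive HSP70 gene Hspa8 and the HSP90 gene Hsp90ab1 were at the top of the list in every group. Hspa8 averaged 912 ± 37 TPM (a length-scaled share of transcripts) in differentiated BIGH3 cells, 1010 ± 42 TPM in differentiated control cells, 1013 ± 33 TPM in undifferentiated BIGH3 cells and 1027 ± 60 TPM in undifferentiated control cells (SD, n = 3 each). Hsp90ab1 averaged 904 ± 13, 1006 ± 58, 1134 ± 48 and 1173 ± 81 TPM in the same 4 groups, so the 2 genes lay within each other's spread in differentiated cells of both treatments. The small heat shock gene Cryab, which encodes alpha-B crystallin, came next in all groups, and in differentiated control cells its 989 ± 33 TPM lay within the spread of the 2 genes above it. Below these came the TRiC subunit gene Cct2 at 466 to 577 TPM as group means. Of the 34 neighbouring pairs in the order of levels, 13 to 20 per group lay closer than their SDs added together.

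At the other end, the stress-inducible HSP70 gene Hspa1a and the small heat shock gene Hspb1 did not pass the filter. Hspa1a had 1 read in differentiated BIGH3 cells, 11 in differentiated control cells, 2 in undifferentiated BIGH3 cells and 3 in undifferentiated control cells, summed over each group. Hspb1 had 2, 4, 0 and 2 reads in the same groups, and the 0 reads allow up to 0.0443 CPM, for counting error only. Hspa1b, the near-identical copy of Hspa1a, had 342 to 1093 reads per library. The coding sequences of this pair are identical at 1915 of 1926 aligned positions (99.4%), so how the authors' estimate divided reads between them is uncertain, and summing the copies changed no count of calls given below.

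**Figure D1:**
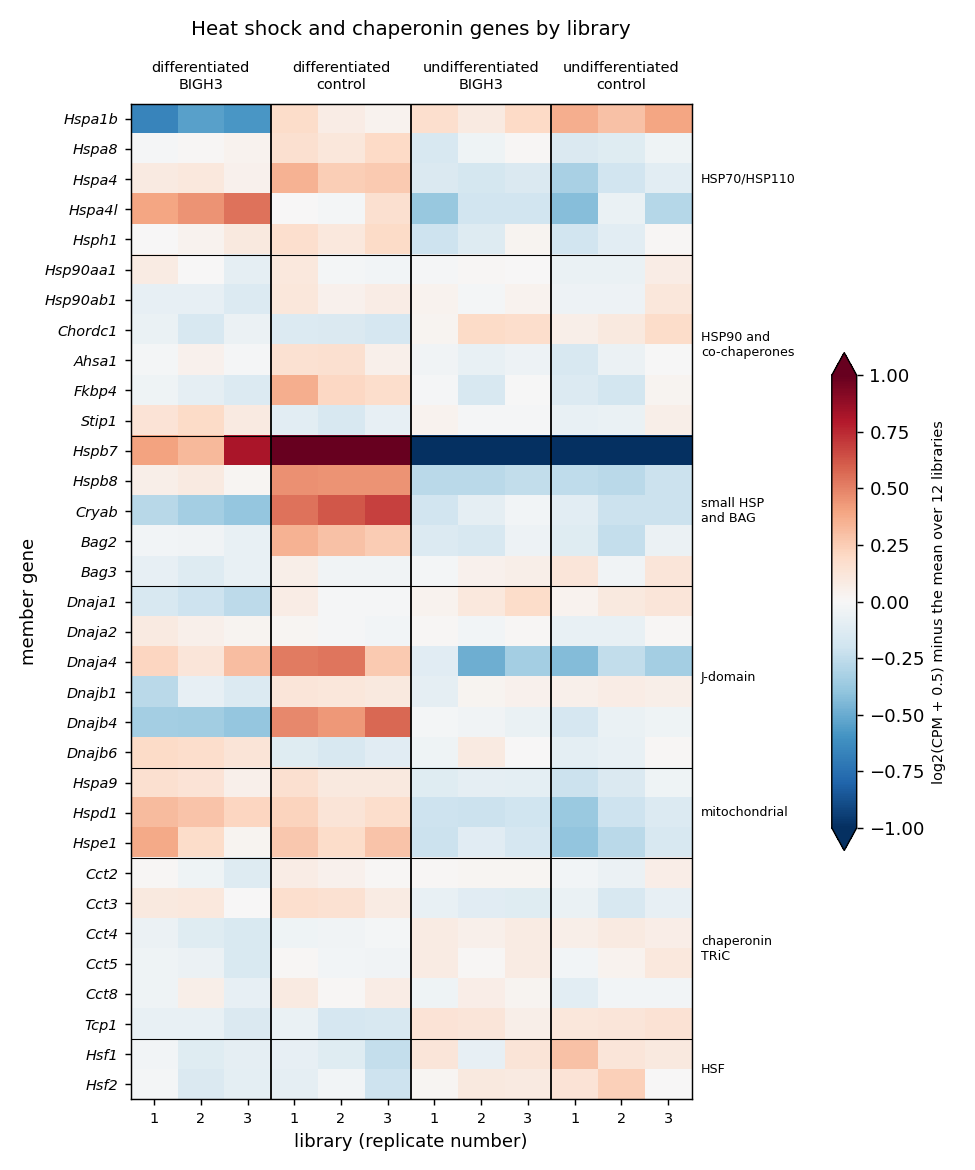
Each row is 1 of the 33 genes tested and each column 1 library, coloured by log2(CPM + 0.5) minus the gene's mean over 12 libraries, with values beyond 1 in either direction drawn at the end colour. Hspb7, Hspb8, Cryab, Bag2 and Dnajb4 are highest in the 3 differentiated control libraries, and Hspa1b is lowest in the 3 differentiated BIGH3 libraries.

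Promoter windows were searched for the letters of the element that heat shock factors bind. RefSeq promoter windows (GRCm38.p6, 250 bases before to 50 after a start) were present for 28 of the 35 genes (not for Hspa8, Hspa9, Hsp90aa1, Hsp90ab1, Cryab, Hsf1 and Cct4), and each was searched on both strands for inverted units of the element, written GAANNTTC and TTCNNGAA, and for 3 units in a row, which is GAANNTTC followed by any 2 bases and GAA, or its reverse complement, and which contains both shorter forms. GAANNTTC was in 14 of the 28 (50.0%), against 9.04% of 27025 genes with a window. TTCNNGAA was in 7 of 28 (25.0%), against 9.60% of genes. The run of 3 units was in 5 of 28 (17.9%), Hsph1, Chordc1, Dnajb6, Hspd1 and Hspe1, against 0.662% of genes. Hspd1 and Hspe1 are both counted for the same stretch, and Hspa1a and Hspa1b are near-identical copies, so these counts are not of independent windows. These are matches of letters and were not tested as binding sites. The windows below belong to genes whose levels are described in the results, and capitals mark the matched letters. Each reads 5′ to 3′ on the gene's own strand and the matched letters lie upstream of a RefSeq start. The stretches of Hspa1a and Hspa1b are shown because they are the same base for base, and the pair is identical at 247 of 250 upstream positions (98.8%). The stretch of Hspe1 and Hspd1 is shown once, on the plus strand. Its matched letters lie 72 to 89 bases before a RefSeq start of Hspe1. On the opposite strand they lie 127 to 144 bases before a RefSeq start of Hspd1. In the annotation used for counting, the genes start 111 bases apart and share 112 exonic bases. There the stretch lies upstream of Hspe1 but within Hspd1. In the same annotation the stretches of Dnajb4 and Dnajb6 also lie within their genes, which span 152178511 to 152210302 and 29735688 to 29818134.
Hspa1b, chr17:34959305-34959372, minus strand: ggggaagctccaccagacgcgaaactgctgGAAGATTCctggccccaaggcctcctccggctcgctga
Hspa1a, chr17:34972223-34972290, minus strand: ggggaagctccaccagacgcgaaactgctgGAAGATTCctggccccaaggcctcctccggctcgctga
Fkbp4, chr6:128438770-128438837, minus strand: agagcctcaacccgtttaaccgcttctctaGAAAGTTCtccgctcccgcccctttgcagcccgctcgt
Dnajb4, chr3:152193846-152193889, minus strand: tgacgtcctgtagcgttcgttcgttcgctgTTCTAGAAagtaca
Dnajb6, chr5:29735822-29735894, plus strand: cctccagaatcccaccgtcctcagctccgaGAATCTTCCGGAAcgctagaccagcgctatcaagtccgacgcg
Hspe1 and Hspd1, chr1:55088029-55088106, plus strand: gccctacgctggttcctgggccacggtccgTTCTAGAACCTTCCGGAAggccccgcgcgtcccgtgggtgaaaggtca

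The first question of the design was what BIGH3 did in differentiated cells. Of the 33 members tested 15 were called, 3 higher and 12 lower with BIGH3, at an adjusted p below 0.05 in edgeR's quasi-likelihood test over all 14711 genes tested. In the same comparison 45.5% of all genes tested were called, 22.6% higher and 22.9% lower, so the share of members called was that of all genes. The median log2 fold change was -0.09 over the members and -0.01 over all genes. The groups did not overlap for 22 of the 33 members, against 55.1% of all genes. All 12 lower calls were in the HSP70, HSP90, small heat shock and J-domain groups, and no TRiC, mitochondrial or heat shock factor gene was called.

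The small heat shock and BAG genes held the largest falls. Cryab (chromosome 9, 50751325 to 50756636, GRCm38) stood at 302, 288 and 278 CPM in the differentiated BIGH3 libraries, against 531, 561 and 586 CPM in the differentiated control libraries. The highest BIGH3 library was far below the lowest control library. Its log2 fold change was -0.95 ± 0.05 (SE, adjusted p = 7.75e-12), a level 1.93-fold lower. Cryab shares 17.0% of its exonic bases with Hspb2 on the opposite strand, and no source used here names the libraries' strand, so the overlap's reads could be of either gene. Hspb2 stood at 2.46 to 3.47 CPM with BIGH3 and 4.63 to 5.63 CPM in control cells, and fell by 0.76 (adjusted p = 0.00285); its part in the Cryab result was not tested.

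Hspb7, a small heat shock gene known from heart and muscle (chromosome 4, 141420779 to 141425311), was low throughout, with 6 to 11 reads per undifferentiated library. It stood at 2.74, 2.57 and 3.81 CPM in the differentiated BIGH3 libraries, against 13.4, 14.1 and 13.2 CPM in the differentiated control libraries. The groups were far apart, with a log2 fold change of -2.16 ± 0.18 (adjusted p = 4.53e-09). Hspb8, whose protein works with that of Bag3 in clearing misfolded proteins (chromosome 5, 116408491 to 116422864), stood at 156, 160 and 153 CPM with BIGH3, against 206, 205 and 205 CPM in control cells. It fell by 0.40 ± 0.04 on the log2 scale (adjusted p = 1.58e-07). Bag2, which encodes an HSP70 co-factor, fell by 0.34 (69.2 to 71.6 CPM with BIGH3, 86.8 to 93.0 CPM in control cells), and Bag3 did not pass the test (-0.09 ± 0.05, adjusted p = 0.180).

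Of the J-domain genes, 3 fell and 1 rose. Dnajb4 (chromosome 3, 152178511 to 152210302) stood at 107, 106 and 103 CPM in the differentiated BIGH3 libraries, against 190, 183 and 202 CPM in the differentiated control libraries. The groups did not overlap, and the log2 fold change was -0.86 ± 0.05 (adjusted p = 9.58e-12), second in size to Cryab among members above 20 CPM in control cells. Dnajb1, an HSP40 gene that rises after heat shock, fell by 0.28, and Dnaja1 fell by 0.23. Dnajb6, whose protein holds back protein aggregation, rose by 0.30, with 263 to 276 CPM in BIGH3 cells and 216 to 223 CPM in control cells. Dnaja2 (0.07) and Dnaja4 (-0.23 ± 0.10, adjusted p = 0.0701) did not pass.

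The HSP70 and HSP110 genes moved in both directions. Hspa1b (chromosome 17, 34956436 to 34959238) stood at 18.1, 19.7 and 19.1 CPM in the differentiated BIGH3 libraries, against 33.0, 30.5 and 29.7 CPM in the differentiated control libraries. These groups did not overlap, and the log2 fold change was -0.71 ± 0.07 (adjusted p = 5.16e-08). Hspa4, an HSP110 gene whose protein exchanges nucleotide on HSP70, fell by 0.21, and Hspa8 fell by 0.15 (1633 to 1687 CPM with BIGH3, 1787 to 1890 CPM in control cells). Hspa4l, a relative of Hspa4 (chromosome 3, 40744495 to 40796103), went the other way. It stood at 40.3, 41.8 and 44.6 CPM with BIGH3, against 30.6, 29.99 and 34.0 CPM in control cells, a rise of 0.42 ± 0.09 (adjusted p = 0.000441). Hsph1, the HSP110 gene, did not pass (-0.11, adjusted p = 0.144).

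Among HSP90 and its co-chaperones, Fkbp4, an immunophilin of steroid receptor complexes, fell by 0.34 ± 0.06 (adjusted p = 0.000132), with 133 to 142 CPM in BIGH3 cells and 165 to 188 CPM in control cells. Stip1, the adaptor between HSP70 and HSP90, rose by 0.26 ± 0.05 (adjusted p = 0.000209), with 197 to 211 CPM in BIGH3 cells and 165 to 175 CPM in control cells. Hsp90ab1, the constitutive HSP90 gene, fell by 0.17 (adjusted p = 0.00422), and its inducible relative Hsp90aa1 had a log2 fold change of -0.02 ± 0.05. Chordc1 (0.05) and Ahsa1 (-0.12, adjusted p = 0.0545), both HSP90 co-chaperone genes, did not pass.

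The 6 TRiC subunit genes had log2 fold changes of -0.10 (Cct2) to 0.03 (Tcp1) with standard errors of 0.04 or 0.05, and none passed edgeR's test. Cct2 was called lower with DESeq2 (adjusted p = 0.0381) and without differentiated BIGH3 1 (0.0324), and Cct4 with length offsets (0.0279). The mitochondrial genes Hspa9, Hspd1 and Hspe1 stood at -0.00173, 0.10 and -0.04, and the factors Hsf1 and Hsf2 at 0.07 and 0.02. The calls on Cryab, Hspb7, Hspb8, Bag2, Dnajb1, Dnajb4, Dnajb6, Hspa1b, Fkbp4 and Stip1 were kept under all 25 alternative settings, while those on Hspa8, Hspa4, Hsp90ab1, Dnaja1 and Hspa4l were lost in TPM (adjusted p of 0.0501 to 0.129 with 1 added before the log). Members called in differentiated cells were 15 with and 15 without the libraries that carry liver transcripts.

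**Figure D2:**
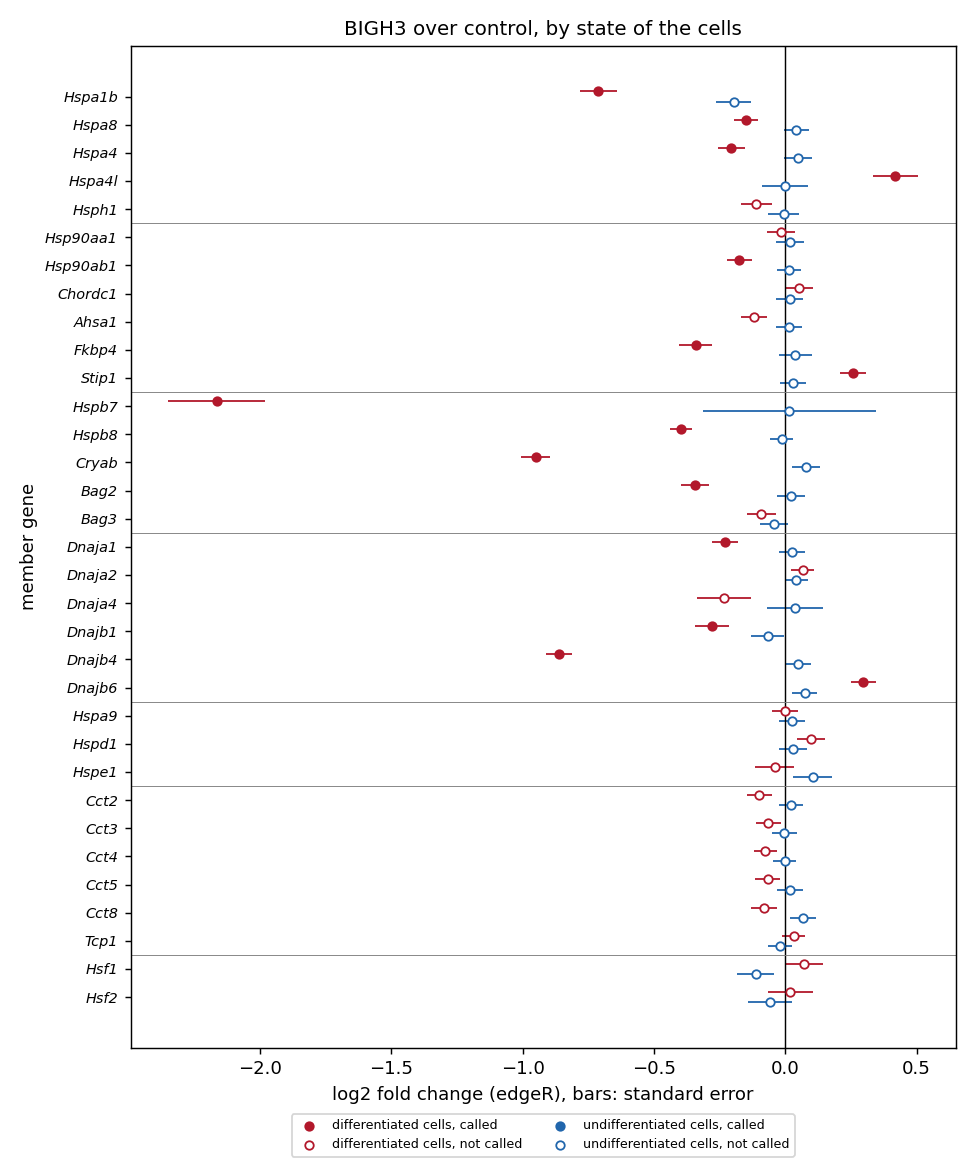
Points give the log2 fold change of BIGH3 over control for each of the 33 genes tested, in differentiated cells (red) and undifferentiated cells (blue), with bars of 1 standard error and filled points for called genes. In differentiated cells Hspb7 lies at -2.16, Cryab at -0.95, Dnajb4 at -0.86 and Hspa1b at -0.71, while no point is filled for undifferentiated cells.

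Other genes moved in the same comparison, and their part in these results was not tested. The 10 genes of a list of handling and acute stress genes, such as Fos, Egr1 and Jun, summed to 400 to 462 CPM in differentiated BIGH3 cells and 263 to 267 CPM in differentiated control cells, with 4 called higher and 2 lower. Macrophage and osteoclast markers summed to 18.1 to 19.9 CPM with BIGH3 and 35.9 to 36.7 CPM in control cells, mostly Ctsk, with 1 of 4 tested called, lower, and with Csf1r at 0.224 CPM or less and Adgre1 at 0.274 CPM or less in every library. Chondrocyte markers summed to 123 to 131 CPM with BIGH3 and 211 to 220 CPM in control cells, with 3 of 4 tested called lower. All 7 osteoblast markers were called lower, at sums of 1681 to 1938 CPM with BIGH3 and 2101 to 2472 CPM in control cells. These sums were mostly Col1a1 (1616 to 3049 CPM over the 12 libraries). Of 4 osteocyte markers tested 3 were called higher and 1 lower. The 4 adipocyte markers summed to 0.428 to 1.00 CPM with BIGH3 and 2.43 to 3.10 CPM in control cells, and the 1 tested was called lower.

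BIGH3 gave no call among the members in undifferentiated cells. None of the 33 passed edgeR's test there, 1 had an unadjusted p below 0.05 and DESeq2 called 0. Of all genes 0.0204% were called (3 of 14711), 0.0068% higher and 0.0136% lower, with 599 at an unadjusted p below 0.05. Of the 3 calls, 2 were lower calls in the list of handling and acute stress genes, where 6 of 10 had an unadjusted p below 0.05. This list summed to 603 to 695 CPM in undifferentiated BIGH3 cells and 805 to 829 CPM in undifferentiated control cells, and its part in the values below was not tested. The groups did not overlap for 2 of the 33, Hspa1b and Dnajb1, against 8.96% of all genes. Hspa1b stood at 32.6, 30.8 and 33.4 CPM in undifferentiated BIGH3 cells, against 37.3, 35.5 and 38.1 CPM in undifferentiated control cells, a log2 fold change of -0.20 ± 0.07. Cryab stood at 320, 343 and 358 CPM in undifferentiated BIGH3 cells, against 339, 314 and 314 CPM in control cells, and these groups overlapped. Dnajb4 stood at 133, 132 and 129 CPM with BIGH3, against 120, 129 and 132 CPM in control cells, which overlapped as well. The other members had log2 fold changes of -0.11 (Hsf1) to 0.10 (Hspe1). Liver markers summed to 4.64 to 24.5 CPM in undifferentiated BIGH3 cells and 5.96 to 115 CPM in undifferentiated control cells, and the count of members called was 0 with and without the libraries with most of them.

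**Figure D3:**
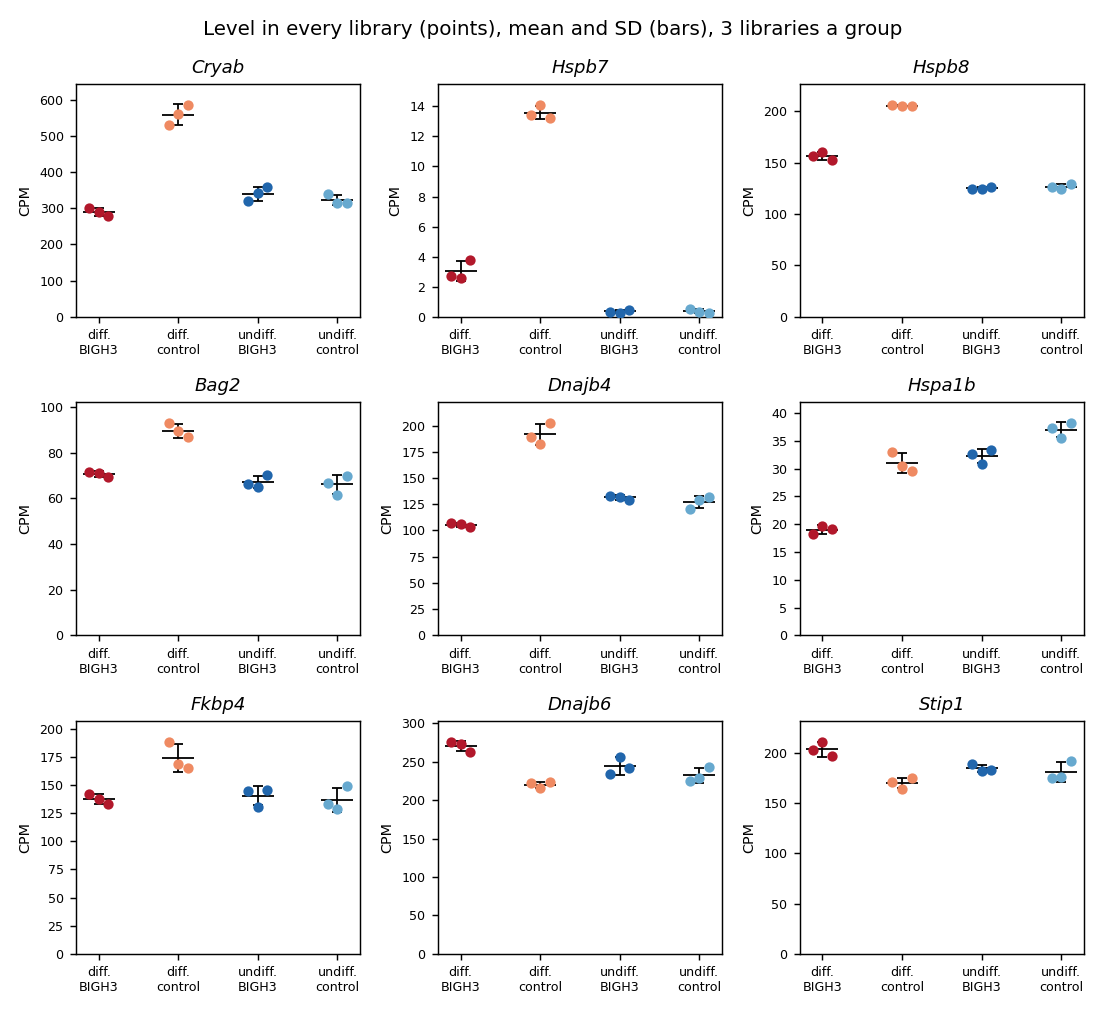
Each panel gives 1 gene, with CPM from 0 on the vertical axis, points for the 3 libraries of each group and bars for the mean and SD. For Cryab, Hspb7, Hspb8, Bag2, Dnajb4, Hspa1b and Fkbp4 every differentiated BIGH3 library lies below every differentiated control library, and for Dnajb6 and Stip1 every one lies above.

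Whether the effect of BIGH3 differed between the states was tested as an interaction in the same fit. It was called for 14 of the 33 members, 3 with a higher and 11 with a lower BIGH3 effect in differentiated than in undifferentiated cells, against 32.2% of all genes tested (16.2% higher, 16% lower). On the TPM scale all genes split 2214 higher and 1135 lower, and members 3 and 7. The difference of the 2 log2 fold changes was -2.18 ± 0.39 for Hspb7 (adjusted p = 0.000180), -1.03 ± 0.08 for Cryab (adjusted p = 1.27e-09), -0.91 ± 0.07 for Dnajb4 (2.14e-09), -0.51 ± 0.10 for Hspa1b (0.000347) and -0.38 ± 0.06 for Hspb8 (4.78e-05). These 5 calls held under all 24 alternatives run for the interaction. The other lower calls were Bag2, Fkbp4, Dnaja1, Hspa4, Hspa8 and Hsp90ab1, and the higher calls were Hspa4l, Stip1 and Dnajb6. Fewer members were called without libraries with liver transcripts, 11 without the 3 with most and 10 without all 4. The Hspa8 call was lost without 1 of 8 libraries (adjusted p of 0.0517 to 0.119), namely undifferentiated BIGH3 2 or 3, undifferentiated control 1 or 2, differentiated BIGH3 1 or 2 and differentiated control 1 or 3. The Hsp90ab1 call was lost without 1 of 7 (0.0529 to 0.0925), namely undifferentiated BIGH3 1 or 3, undifferentiated control 1 or 2, differentiated BIGH3 2 and differentiated control 1 or 3. Stip1 was not called without differentiated BIGH3 2 (0.0595) or differentiated control 2 (0.0614), and Dnajb6 was not called without differentiated control 2 (0.0569).

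Differentiation was compared within control cells and within BIGH3 treated cells. These comparisons depend on how the libraries are scaled, so each is given on both scales. With TMM scaling of counts, 22 of the 33 members were called in control cells, 16 higher and 6 lower in differentiated cells, against 57.7% of all genes (29.1% higher, 28.6% lower). In TPM, 22 were called with 5 higher and 17 lower, and all genes split 1728 higher and 6965 lower. With library totals the members split 11 and 12, and all genes 2930 and 5899. The median of all genes moved to -0.25 in TPM and -0.16 with library totals. Directions of small changes are therefore relative to the scale chosen. The groups did not overlap for 26 of 33 members, against 63.4% of all genes. Without the 3 or the 4 libraries with liver transcripts 20 members were called, 16 higher and 4 lower.

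Marker lists moved in the same comparison, and their part in the member results was not tested. Handling and acute stress genes summed to 263 to 267 CPM in differentiated control cells and 805 to 829 CPM in undifferentiated control cells, with 9 of 10 called lower. Macrophage and osteoclast markers summed to 35.9 to 36.7 CPM in differentiated and 3.46 to 4.62 CPM in undifferentiated control cells, with 2 of 4 tested called higher. Chondrocyte markers summed to 211 to 220 CPM in differentiated and 330 to 364 CPM in undifferentiated control cells, with 1 called higher and 2 lower. Of 7 osteoblast markers 5 were called higher and 1 lower, at sums of 2101 to 2472 CPM in differentiated and 2771 to 3105 CPM in undifferentiated control cells. The sums were mostly Col1a1 (1616 to 3049 CPM over the 12 libraries), so they do not give the level of the other osteoblast markers. Of 4 osteocyte markers tested 1 was called higher and 2 lower, and the 1 adipocyte marker tested was called higher.

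In control cells Hspb7, Cryab, Hspb8 and Dnajb4 rose on every scale tried. Hspb7 stood at 13.4, 14.1 and 13.2 CPM in differentiated control cells, against 0.516, 0.286 and 0.279 CPM in undifferentiated control cells, a log2 fold change of 5.25 ± 0.24 (adjusted p = 1.17e-13) and 2.57 on the log2(TPM + 1) scale, which understates changes of low genes. Cryab stood at 531, 561 and 586 CPM in differentiated control cells, against 339, 314 and 314 CPM in undifferentiated control cells, without overlap. It rose by 0.79 ± 0.05 (adjusted p = 8.91e-11) and by 0.50 in TPM. Hspb8 stood at 206, 205 and 205 CPM, against 126, 124 and 129 CPM in undifferentiated control cells, a rise of 0.70 ± 0.04 (0.41 in TPM). Dnajb4 stood at 190, 183 and 202 CPM, against 120, 129 and 132 CPM, a rise of 0.59 ± 0.05 (0.32 in TPM). For both genes the groups were apart.

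Dnaja4, a J-domain gene (chromosome 9, 54698873 to 54716315), stood at 21.3, 21.5 and 17.8 CPM in differentiated control cells, against 10.7, 12.3 and 11.5 CPM in undifferentiated control cells. It rose by 0.81 ± 0.10 (adjusted p = 1.16e-06), but by 0.33 without a call in TPM (adjusted p = 0.154). The gene shares 44.1% of its exonic bases with Wdr61 on the opposite strand, which stood at 57.8 to 59.3 CPM in differentiated control cells and 52.0 to 54.4 CPM in undifferentiated control cells. Its short transcript of 756 bases took 40.9% of the gene's TPM in differentiated control cells and 50.1% in undifferentiated control cells. In differentiated BIGH3 cells that share was 14.0%. Transcript lengths entered the fit with length offsets, given below for BIGH3 in differentiated cells, while the part of this transcript alone was not tested. With BIGH3 in differentiated cells Dnaja4, not called in the reported setting, was called lower in 7 of 25 alternatives. These were length offsets (-0.62, adjusted p = 0.0166), TPM with 1 or 0.1 added, no filter on low counts (-0.25, adjusted p = 0.0453), and the fits without undifferentiated BIGH3 1, differentiated BIGH3 3 or differentiated control 3.

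Of the other HSP70 and HSP90 genes, Hspa4 rose by 0.49 and Fkbp4 by 0.35 in differentiated control cells, with 0.12 and 0.03 and no call in TPM, and Bag2 rose by 0.44 (0.11 and no call in TPM). An Hspa4 transcript of 630 bases is annotated as a retained intron. It took 47.6% of the gene's TPM in differentiated and 50.4% in undifferentiated control cells, and its part was not tested. Hspa8 (0.26), Hspa4l (0.31), Hsph1 (0.25) and Ahsa1 (0.19) rose with TMM scaling and turned to -0.02, -0.22, -0.20 and -0.10 in TPM. Hspa1b fell by 0.25 ± 0.07 (adjusted p = 0.00299) and by 0.53 in TPM. Chordc1 fell by 0.26, and the factor genes Hsf1 and Hsf2 by 0.32 and 0.24, with the Hsf2 call lost without differentiated control 3 (adjusted p = 0.0796) or undifferentiated control 2 (0.0988).

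The mitochondrial genes rose with TMM scaling. Hspe1, which encodes the HSP10 lid of the mitochondrial chaperonin (chromosome 1, 55088132 to 55091307), stood at 160, 151 and 162 CPM in differentiated control cells, against 101, 110 and 119 CPM in undifferentiated control cells. The groups were apart, and it rose by 0.52 ± 0.07 (adjusted p = 1.63e-05) and by 0.23 in TPM. Hspd1, its HSP60 partner with which it shares the promoter stretch printed above, rose by 0.41 (0.14 and no call in TPM), and the mitochondrial HSP70 gene Hspa9 rose by 0.25 (-0.04 in TPM). Transcripts encoded by the mitochondrial genome took 7.72 to 11.1% of reads in differentiated control cells and 3.91 to 4.65% in undifferentiated control cells, and the part of this in the results was not tested.

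With TMM scaling 1 of the 6 TRiC subunits was called higher and 2 lower. Tcp1, the first subunit, fell by 0.26 (adjusted p = 5.05e-05) and Cct4 by 0.11 in differentiated control cells, while Cct3 rose by 0.24, which turned to -0.03 in TPM. The Cct4 call was lost without differentiated control 1, 2 or 3 or undifferentiated control 2 (adjusted p of 0.0536 to 0.101). In TPM 5 of the 6 subunits were called lower and 0 higher. The summed TPM of the 6 subunits was 1265 to 1491 in differentiated control cells and 1720 to 1835 in undifferentiated control cells, without overlap. Tcp1 averaged 321 ± 47 and 501 ± 14 TPM of these. A Tcp1 transcript of 768 bases, annotated as a retained intron, took 22.6% and 27.1% of its TPM, and the part of this was not tested.

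In BIGH3 treated cells 22 of the 33 members were called, 12 higher and 10 lower in differentiated cells, against 56.6% of all genes (28.9% higher, 27.7% lower). In TPM 23 were called, 3 higher and 20 lower, with all genes at 2119 and 5770, and with library totals 6 and 15, with all genes at 3107 and 5304. The median of all genes moved to -0.16 in TPM. The groups did not overlap for 24 of the 33, against 62.6% of all genes. This comparison shares its libraries with the BIGH3 comparisons above, and its values are given beside those of control cells without a test of their likeness. Without 3 libraries with liver transcripts 19 members were called, 11 higher and 8 lower, and without 4 of them 18, 10 higher and 8 lower.

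Marker lists moved here too, and their part was not tested. Handling and acute stress genes summed to 400 to 462 CPM in differentiated BIGH3 cells and 603 to 695 CPM in undifferentiated BIGH3 cells, with 2 of 10 called higher and 7 lower. Chondrocyte markers summed to 123 to 131 CPM in differentiated and 327 to 350 CPM in undifferentiated BIGH3 cells, with 3 of 4 tested called lower. Macrophage and osteoclast markers summed to 18.1 to 19.9 CPM in differentiated and 3.08 to 3.56 CPM in undifferentiated BIGH3 cells, with 2 of 4 tested called higher. All 4 osteocyte markers tested were called higher, at sums of 587 to 614 CPM in differentiated and 386 to 414 CPM in undifferentiated BIGH3 cells, and of 7 osteoblast markers 3 were called higher and 2 lower.

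Cryab and Dnajb4 fell with differentiation in BIGH3 treated cells, where they rose in control cells. Cryab stood at 302, 288 and 278 CPM in differentiated BIGH3 cells, against 320, 343 and 358 CPM in undifferentiated BIGH3 cells, a fall of 0.23 ± 0.05 (adjusted p = 0.000990; 0.45 in TPM). Dnajb4 stood at 107, 106 and 103 CPM, against 133, 132 and 129 CPM, and fell by 0.32 ± 0.05 (adjusted p = 1.61e-05; 0.50 in TPM). Both pairs of groups were apart, and the interaction given above is the test of this difference. Hspb7 stood at 2.74, 2.57 and 3.81 CPM in differentiated BIGH3 cells, against 0.324, 0.281 and 0.456 CPM in undifferentiated BIGH3 cells, a rise of 3.07 ± 0.25. Hspb8 rose by 0.32 (0.11 and no call in TPM), and Bag2 had a log2 fold change of 0.07 with no call.

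Hspa1b stood at 18.1, 19.7 and 19.1 CPM in differentiated BIGH3 cells, against 32.6, 30.8 and 33.4 CPM in undifferentiated BIGH3 cells, and fell by 0.77 ± 0.07 (adjusted p = 1.09e-08). Hspa4l stood at 40.3, 41.8 and 44.6 CPM, against 23.3, 26.6 and 26.6 CPM in undifferentiated BIGH3 cells, and rose by 0.73 ± 0.09 (adjusted p = 4.76e-07; 0.48 in TPM). For both genes the groups were apart. Dnaja4 stood at 17.1, 16.0 and 18.4 CPM, against 13.5, 10.3 and 11.5 CPM in undifferentiated BIGH3 cells, a rise of 0.54 ± 0.11 that was 0.08 without a call in TPM. Dnaja1 fell by 0.32 and Tcp1 by 0.21. Hspe1 stood at 173, 151 and 136 CPM, against 114, 123 and 118 CPM, and rose by 0.37 (0.16 and no call in TPM), and Hspd1 rose by 0.48 ± 0.05 (adjusted p = 1.76e-07). Mitochondrially encoded transcripts took 8.48 to 9.43% of reads in differentiated BIGH3 cells and 4.28 to 5.72% in undifferentiated BIGH3 cells. Some smaller calls ended when 1 library was left out, with adjusted p of 0.0525 to 0.252. That of Hsph1 (0.14, -0.09 in TPM) ended without any 1 of 9 libraries, all but undifferentiated BIGH3 3 and undifferentiated control 1 and 3. Those of Dnajb6 (0.15), Hsp90ab1 (-0.12) and Stip1 (0.14, -0.06 in TPM) ended without any 1 of 4 libraries each, namely differentiated BIGH3 1 or 2 and undifferentiated BIGH3 1 or 3 for Dnajb6, differentiated BIGH3 2 or 3 and undifferentiated BIGH3 1 or 3 for Hsp90ab1, and differentiated BIGH3 1 or 2 and undifferentiated BIGH3 2 or 3 for Stip1. That of Dnajb1 (-0.16) ended without differentiated BIGH3 1 or undifferentiated BIGH3 2 or 3, and that of Cct5 (-0.14) without differentiated BIGH3 3 or undifferentiated BIGH3 3.

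**Figure D4:**
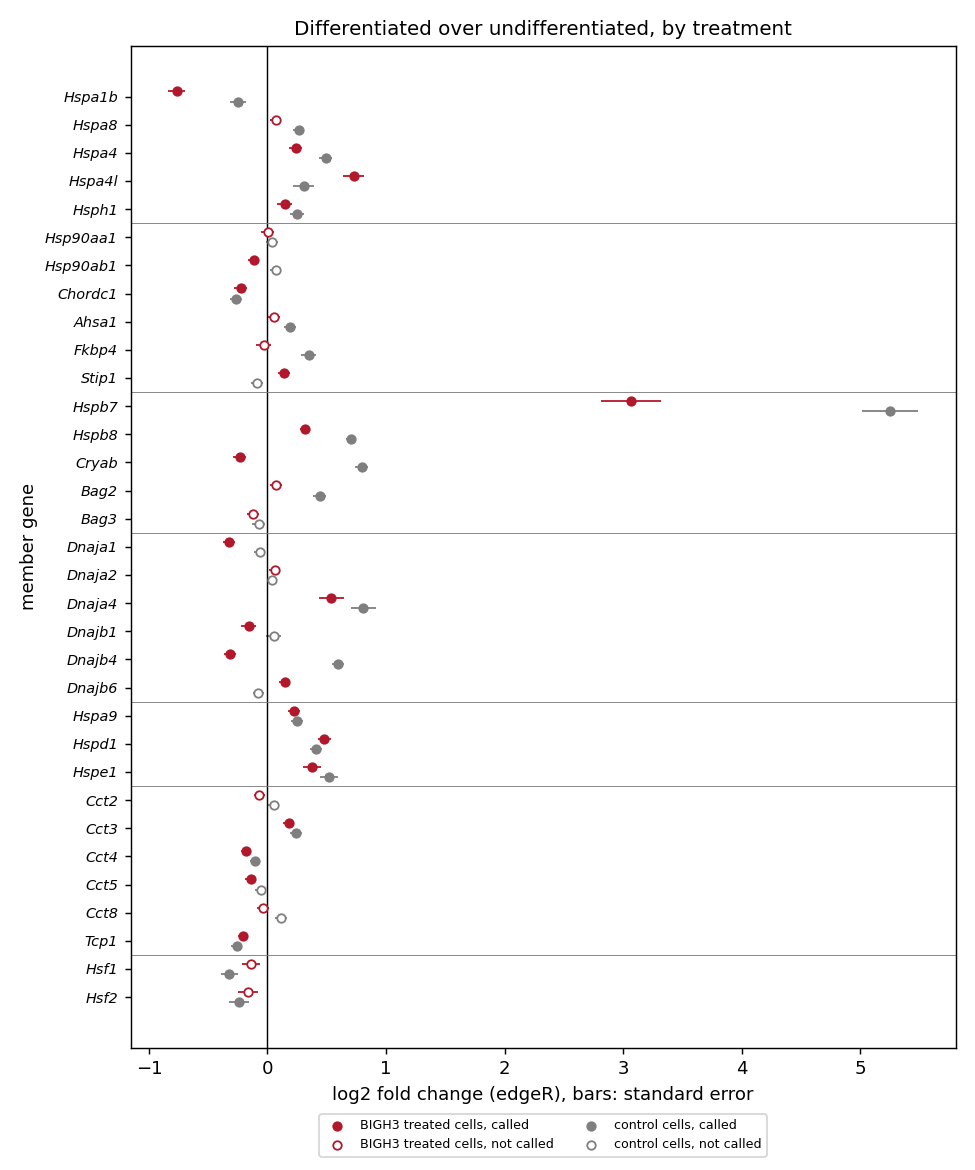
Points give the log2 fold change of differentiated over undifferentiated cells with TMM scaling, for BIGH3 treated cells (red) and control cells (grey), with bars of 1 standard error and filled points for called genes. Cryab lies at -0.23 in BIGH3 treated cells and 0.79 in control cells, and Dnajb4 at -0.32 and 0.59, on opposite sides of 0.

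The summed TPM of all 35 members was 6244 ± 93 in differentiated BIGH3 cells, 7046 ± 355 in differentiated control cells, 7280 ± 138 in undifferentiated BIGH3 cells and 7492 ± 357 in undifferentiated control cells (SD, n = 3 each). As shares of all transcripts these were 0.624, 0.705, 0.728 and 0.749%. Differentiated BIGH3 libraries, at 6141 to 6321 TPM, lay below all others, and the ranges of the other groups overlapped with each other, at 6694 to 7404, 7123 to 7384 and 7242 to 7901 TPM in the order given. Against differentiated control cells, mean sums with BIGH3 were lower for every role but the mitochondrial genes and heat shock factors. Of these lower roles, libraries overlapped for HSP90 and its co-chaperones (1570 to 1596 TPM with BIGH3, 1572 to 1812 TPM in control cells). They also overlapped for J-domain genes (613 to 635, 631 to 686) and TRiC (1324 to 1343, 1265 to 1491). They were apart for HSP70 and HSP110 (1107 to 1174, 1199 to 1346) and for the small heat shock and BAG genes. The largest gap was in the small heat shock and BAG genes (733 ± 19 against 1248 ± 25 TPM), where Cryab averaged 527 against 989 TPM.

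A wider set of 88 chaperone genes outside the list, chosen by name, was counted in the same fit, and 86 were tested. With BIGH3 in differentiated cells 36 of the 86 were called, 8 higher and 28 lower, against the 45.5% of all genes given above. The 41 other cytosolic chaperone genes tested had 5 called higher and 14 lower. Dnajc9, a histone-binding J-domain gene, rose by 1.39 and Fkbp5, an immunophilin gene induced by glucocorticoids, fell by 0.80, while Tomm34 fell by 0.40 and the factor gene Hsf4 by 1.23. The remaining chaperonin, prefoldin and tubulin-folding genes had 7 of 17 called, all lower, among them the tubulin-folding genes Tbcb (-0.52) and Tbca (-0.27), the prefoldin gene Pfdn5 (-0.26) and Txndc9 (-0.30). Of 12 other mitochondrial genes 1 was called higher, the mitochondrial HSP90 gene Trap1 (0.17), and 4 lower, among them the mitochondrial J-domain gene Dnaja3 (-0.36), Clpx (-0.25) and Grpel1 (-0.24). Of 16 chaperones of the endoplasmic reticulum (ER) 2 were called higher, Pdia4 (0.34) and Hyou1 (0.25), and 3 lower, among them Sdf2l1 (-0.53) and the collagen chaperone gene Serpinh1 (-0.27). In undifferentiated cells edgeR called 0 of the 86 with BIGH3, 4 had an unadjusted p below 0.05, and DESeq2 called 0.

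For the interaction 27 of the 86 were called, 5 higher and 22 lower, near the 32.2% of all genes, while in TPM 10 were called, 5 higher and 5 lower. With differentiation in control cells 57 of the 86 were called, 48 higher and 9 lower, against 57.7% of all genes (29.1% higher), and in TPM 46, 14 higher and 32 lower. Of the ER chaperones 13 of 16 were called higher and 0 lower with TMM scaling, 11 and 0 with library totals and 7 and 2 in TPM. The ER calcium-binding chaperone gene Calr rose by 0.74 (0.43 in TPM), Manf by 0.75 (0.45 in TPM), the ER HSP70 gene Hspa5 by 0.55 (0.26 in TPM) and Dnajb11 by 0.46 (0.17 in TPM). In BIGH3 treated cells 53 of the 86 were called, 36 higher and 17 lower (10 and 31 in TPM), against 56.6% of all genes (28.9% higher), and of the ER chaperones 15 of 16 were higher, 5 of them also in TPM, where 0 were lower. Calr rose there by 0.67, Manf by 0.72, Pdia4 by 0.56 and Hspa5 by 0.47.

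Among the members with a promoter window and a test, those with any of the element's letters had 1 call higher and 5 lower of 14 with BIGH3 in differentiated cells, at a median log2 fold change of -0.10. Those without had 2 higher and 4 lower of 12, at a median of -0.07, and both shares called were near the 45.5% of all genes. Of the 14, Hspa1b, Hspb8, Dnaja1, Dnajb4 and Fkbp4 fell, Dnajb6 rose, and Hsph1, Dnaja4, Hspd1, Hspe1, Bag3, Chordc1, Cct2 and Cct5 were not called.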

How the data were processed

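RNA-seq was made from 12 libraries of 4 groups, and groups were taken from the sample labels. The authors deposited 1 quantification table per library with estimated (expected) counts, TPM and transcript lengths for 147828 transcripts, per the file headers. The submitters' processing notes name Salmon, StringTie, cutadapt and FastQC and the build mm10, with no roles or versions given in the sources used here. Transcripts were joined to genes through GENCODE M21 (GRCm38), which matched 92.7% of them, and 1.28 to 3.67% of reads per library fell on transcripts without a match and were left out. Deposited estimated counts and deposited TPM were summed per gene, and the summed counts were rounded to whole numbers.

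Genes were kept with edgeR's filterByExpr and tested with its quasi-likelihood test (edgeR 4.0.16 in R 4.3.3, TMM scaling, robust fit, 8 residual degrees of freedom before moderation). A single fit with 1 term per group took all 12 libraries. P-values were adjusted by Benjamini and Hochberg over all 14711 genes tested, and called means an adjusted p below 0.05. Log2 fold changes had a standard error of 0.09 in the median. CPM values use TMM-scaled library sizes. The limit that 0 reads allow is 3 reads, for counting error only.

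Alternatives were library totals, DESeq2 size factors, DESeq2 1.42.0, limma 3.58.1 on log2(TPM + 1) and log2(TPM + 0.1), no filter, length offsets, only the groups compared, the replicate block, summed Hspa1a and Hspa1b, and the fit without each library or without those with liver transcripts. Members called in any comparison with an absolute log2 fold change of at least 0.5 are given in every library, the others by range and count, and of other chaperones up to 4 per list with the smallest adjusted p are named. Members and lists were chosen with earlier results of these data known. Promoters and their sequences are from RefSeq (GRCm38.p6).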

Additional observations from a re-analysis of the deposited data

Results flagged for a closer look

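For 14 members the effect of BIGH3 differed between differentiated and undifferentiated cells by the test of the difference itself in edgeR's fit over all genes. The differences of the log2 fold changes (differentiated minus undifferentiated) were -2.18 for Hspb7, -1.03 for Cryab, -0.91 for Dnajb4, -0.51 for Hspa1b, -0.38 for Hspb8, -0.38 for Fkbp4, -0.37 for Bag2, -0.25 for Dnaja1, -0.25 for Hspa4, -0.19 for Hspa8 and -0.19 for Hsp90ab1. They were 0.42 for Hspa4l, 0.23 for Stip1 and 0.22 for Dnajb6. Adjusted p ran from 1.27e-09 (Cryab) to 0.0329 (Hsp90ab1). The calls on Hspb7, Cryab, Dnajb4, Hspa1b and Hspb8 held under all 24 alternatives, while each of the other 9 was lost in at least 1. The Hspa4l difference was 0.23 (adjusted p = 0.214) without the 3 libraries with most liver transcripts.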

How the results depend on the processing

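Counts of members called kept within 1.5 times of the reported ones in every comparison and alternative but 1, the interaction at 7 in TPM with no filter. With the replicate block they were 15, 0, 22, 22 and 14 (BIGH3 in differentiated cells, BIGH3 in undifferentiated cells, differentiation in control cells, differentiation in BIGH3 treated cells, interaction). Same-numbered libraries correlated at -0.224 to 0.350 in their deviations from the group mean. The highest was between differentiated control 2 and undifferentiated control 2, which both carry liver transcripts. With 3 libraries a group these values cannot decide whether the numbers pair the libraries. Leaving out each library gave 15 to 17, 0 to 0, 20 to 23, 17 to 23 and 11 to 14 members, 34 to 38, 0 to 0, 48 to 57, 41 to 55 and 18 to 26 other chaperones, and 5896 to 6862, 0 to 3, 7824 to 8592, 7498 to 8467 and 4051 to 4693 genes of all. In TPM with no filter, all genes called were 4454 (BIGH3 in differentiated cells) and 2621 (interaction), and other chaperones were 23 (BIGH3 in differentiated cells) and 34 (differentiation in control cells). Other chaperones in the interaction were 10 with 1 added to TPM, 9 with 0.1 added, 4 with no filter and 16 without 4 libraries with liver transcripts. Of all genes, the 3 called with BIGH3 in undifferentiated cells became 8 with DESeq2, 21 with no filter, 0 with only the groups compared, 1, 0 and 0 in TPM (1 added, 0.1 added, no filter), 1 with length offsets, and 1 and 5 without 3 and 4 libraries with liver transcripts. The cause was not tested. Among values called in the reported setting or in the alternative, directions turned only for differentiation, while uncalled values changed sign in other comparisons too. In control cells Dnaja2 was -0.11 with library totals, and with 1 or 0.1 added to TPM the values were -0.0237 for Hspa8, -0.22 and -0.25 for Hspa4l, -0.20 and -0.21 for Hsph1, -0.27 for Hsp90aa1, -0.22 for Hsp90ab1, -0.10 for Ahsa1, -0.38 for Dnaja2, -0.22 and -0.23 for Dnajb1, -0.0437 and -0.0439 for Hspa9, -0.25 for Cct2, -0.0321 and -0.0324 for Cct3 and -0.19 for Cct8. In BIGH3 treated cells they were -0.15 for Hspa8, -0.0859 and -0.0875 for Hsph1, -0.19 and -0.20 for Ahsa1, -0.0650 and -0.0654 for Stip1, -0.17 for Bag2, -0.26 for Dnaja2 and -0.0155 and -0.0156 for Cct3. Depth limits Hspa1a, Hspb1 and, in undifferentiated cells, Hspb7.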
